A study of Mus musculus with 24 samples.

Results

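The genes described here are 4 galectins, Lgals1, Lgals3, Lgals8 and Lgals9, and Lgals3bp, which encodes a secreted binding partner of galectin-3. They are 5 of the 55359 genes in the count table of cultured mouse oligodendrocytes, and all 5 were found by their Ensembl identifiers. In the GENCODE M21 annotation Lgals1 (ENSMUSG00000068220) lies on chromosome 15, Lgals3 (ENSMUSG00000050335) on 14, Lgals8 (ENSMUSG00000057554) on 13, and Lgals9 (ENSMUSG00000001123) and Lgals3bp (ENSMUSG00000033880) on 11. Lgals1 and Lgals3 were chosen by their measured difference between the responses to 30 mM and 10 mM ethanol, in which they stood at ranks 2 and 5 among 14655 genes ordered by p. Their ethanol responses are therefore given as a description, with no test. Lgals3bp, Lgals8 and Lgals9 are relatives of that pair, listed with earlier results of these data known.

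Galectins are proteins that bind sugars carrying β-galactoside on the glycans of cell surfaces and matrix. They are made in the cytosol, leave the cell without a signal peptide, and cross-link glycoproteins such as integrins, CD44 and laminin, or bind glycans exposed inside damaged endosomes and lysosomes. Galectin-1 has 1 sugar-binding domain and forms dimers, galectin-3 has 1 such domain and a long tail through which it forms oligomers, and galectins 8 and 9 carry a pair of different domains in 1 chain. In the brain, galectin-3 is known as a product of activated microglia and has been linked to oligodendrocyte differentiation, and galectin-1 is made by astrocytes, vascular cells and progenitors.

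The cells came from the cortex of C57Bl6J mouse pups at postnatal days 5 to 7. Immature oligodendrocytes were taken out with magnetic beads against the surface antigen O4, and were grown on poly-D-lysine and laminin, itself a galectin ligand, for 3 days in a medium whose main differentiating factor was triiodothyronine (T3). Ethanol was then present for 3 days. Experiment 1 had 6 wells at 30 mM ethanol and 6 control wells at 0 mM, and experiment 2 had 6 wells at 10 mM and 6 control wells at 0 mM. Control plates stood in an incubator of their own. Effects of ethanol and of the incubator therefore cannot be told apart, nor can those of dose and experiment, which the labels also name as batch. The labels number the wells as biological replicates and do not say which came from the same pups, so p-values measure the spread between wells.

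Total counts per well ran from 1184609 to 1817028, and levels are given as CPM, the usual scaling of a gene's count to its well's total, in which 3 counts stood for 1.65 to 2.53. In 3′ tag sequencing each transcript gives reads near its end only, so a count does not grow with transcript length. All 10 oligodendrocyte markers on a fixed list passed the filter on low counts, with a summed level of 4405 to 10026 CPM over the 24 wells. The cultures also held RNA of other cells. The 9 astrocyte markers summed to between 3826 and 6173 CPM. The 14 microglia markers summed to between 275 and 463 CPM in experiment 1 and between 3402 and 4091 CPM in experiment 2, with none of the 14 at 0 throughout any group. In such bulk samples, fewer cells of a type and less RNA per cell cannot be told apart.

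The RefSeq promoter table (build GRCm38.p6, where the submitters' notes name GRCm39 for the counts) had entries for Lgals3, Lgals3bp, Lgals8 and Lgals9, 4 of the 5 genes. Each entry runs from 250 bases before the start of transcription to 50 after it. Promoters of Lgals3 and Lgals9 are shown because these genes differed most between the untreated cultures, and that of Lgals3bp because the gene is known to respond to interferon. Capitals mark matches, on either strand, to a GC box (GGGCGG), an interferon response element (a pair of GAAA repeats on 1 strand, 2 bases apart) or the core of interferon regulatory factor sites (AANNGAAA), which lies inside the longer element.
Lgals3, chr14:47373610-47373909, plus strand: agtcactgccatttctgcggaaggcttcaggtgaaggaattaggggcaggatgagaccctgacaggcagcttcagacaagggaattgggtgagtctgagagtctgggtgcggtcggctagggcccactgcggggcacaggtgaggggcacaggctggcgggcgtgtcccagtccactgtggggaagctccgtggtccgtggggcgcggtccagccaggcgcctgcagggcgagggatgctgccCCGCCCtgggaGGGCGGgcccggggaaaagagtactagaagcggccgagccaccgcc
Lgals9, chr11:78984875-78985174, minus strand: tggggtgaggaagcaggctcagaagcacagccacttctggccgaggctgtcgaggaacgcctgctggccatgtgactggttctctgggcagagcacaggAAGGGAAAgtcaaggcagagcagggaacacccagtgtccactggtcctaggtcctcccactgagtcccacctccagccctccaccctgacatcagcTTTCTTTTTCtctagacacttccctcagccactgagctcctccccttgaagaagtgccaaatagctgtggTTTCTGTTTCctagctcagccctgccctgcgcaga
Lgals3bp, chr11:118401910-118402209, minus strand: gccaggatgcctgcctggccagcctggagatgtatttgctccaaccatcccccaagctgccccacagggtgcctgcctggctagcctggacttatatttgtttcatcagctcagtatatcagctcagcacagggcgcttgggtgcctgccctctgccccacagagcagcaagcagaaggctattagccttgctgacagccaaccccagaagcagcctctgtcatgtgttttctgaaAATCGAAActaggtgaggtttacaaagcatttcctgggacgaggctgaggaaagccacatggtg

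The Lgals3 promoter was the richest in G and C of the 4, at 67.0%, where the median of all promoters in the table was 52.7%. It held 2 GC boxes, a motif found in 35.7% of 32851 promoters, and no match to either interferon motif. The Lgals9 promoter held 2 matches to the interferon response element, which 3.44% of promoters hold, and 1 further match to the core. In the Lgals3bp promoter there was 1 match, to the core, which 23.9% of promoters hold. The Lgals8 promoter, not shown, held none of these motifs. None of the 4 promoters held a TATA box (TATAAA, in 13.6% of promoters) or an AP-1 site (TGANTCA, in 7.81%). The promoter of Lgals1, which had no entry, was not searched. A match of letters is a description and not a binding site.

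Lgals1 encodes galectin-1 and had the highest level of the 5 genes in every group. In the controls of experiment 1 it had 1010 CPM in the lowest well, a median of 1069 and 1189 in the highest. At 30 mM ethanol the lowest, median and highest wells had 494, 510 and 573 CPM. All 6 ethanol wells therefore lay below all 6 controls, and the mean was 526 ± 35.2 CPM against 1086 ± 67.2 CPM (SD, n = 6 each). The log2 fold change was -1.04 (SE 0.0606), which is 2.06-fold lower, and it lay between -1.08 and -1.02 when any 1 well was left out. In experiment 2 the controls had 880, 972 and 1034 CPM as lowest, median and highest level, and the wells at 10 mM had 778, 847 and 936 CPM. The log2 fold change at 10 mM was -0.18 (SE 0.0535), and the wells of the groups overlapped. Ordered by mean level, the groups ran from the controls of experiment 1 through the controls of experiment 2 (961 ± 52.9 CPM, SD, n = 6) and 10 mM (843 ± 59.9 CPM, SD, n = 6) to 30 mM. The control groups overlapped in their wells, as did the controls of experiment 2 and 10 mM, and only 30 mM stood apart from its neighbour in this order.

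Lgals3 encodes galectin-3, and its level differed far more between the experiments. The lowest, median and highest control wells of experiment 1 had 81.7, 101 and 129 CPM. At 30 mM the corresponding wells had 30.4, 46.6 and 56.0 CPM, again with all ethanol wells below all controls. The means were 45.8 ± 9.43 and 104 ± 15.6 CPM (SD, n = 6 each), a log2 fold change of -1.17 (SE 0.111) or 2.25-fold lower. These levels rest on 37 to 83 counts per well at 30 mM and 123 to 187 in the controls. In experiment 2 the controls had 301, 332 and 349 CPM as lowest, median and highest level and the wells at 10 mM had 267, 296 and 328 CPM. The log2 fold change at 10 mM was -0.14 (SE 0.0599), with wells that overlapped. Of the 4 groups, the controls of experiment 2 were highest (328 ± 18.2 CPM, SD, n = 6) and 10 mM second (298 ± 23.5 CPM, SD, n = 6), then the controls of experiment 1 and 30 mM. Only the upper pair of neighbours overlapped in their wells.

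**Figure D1:**
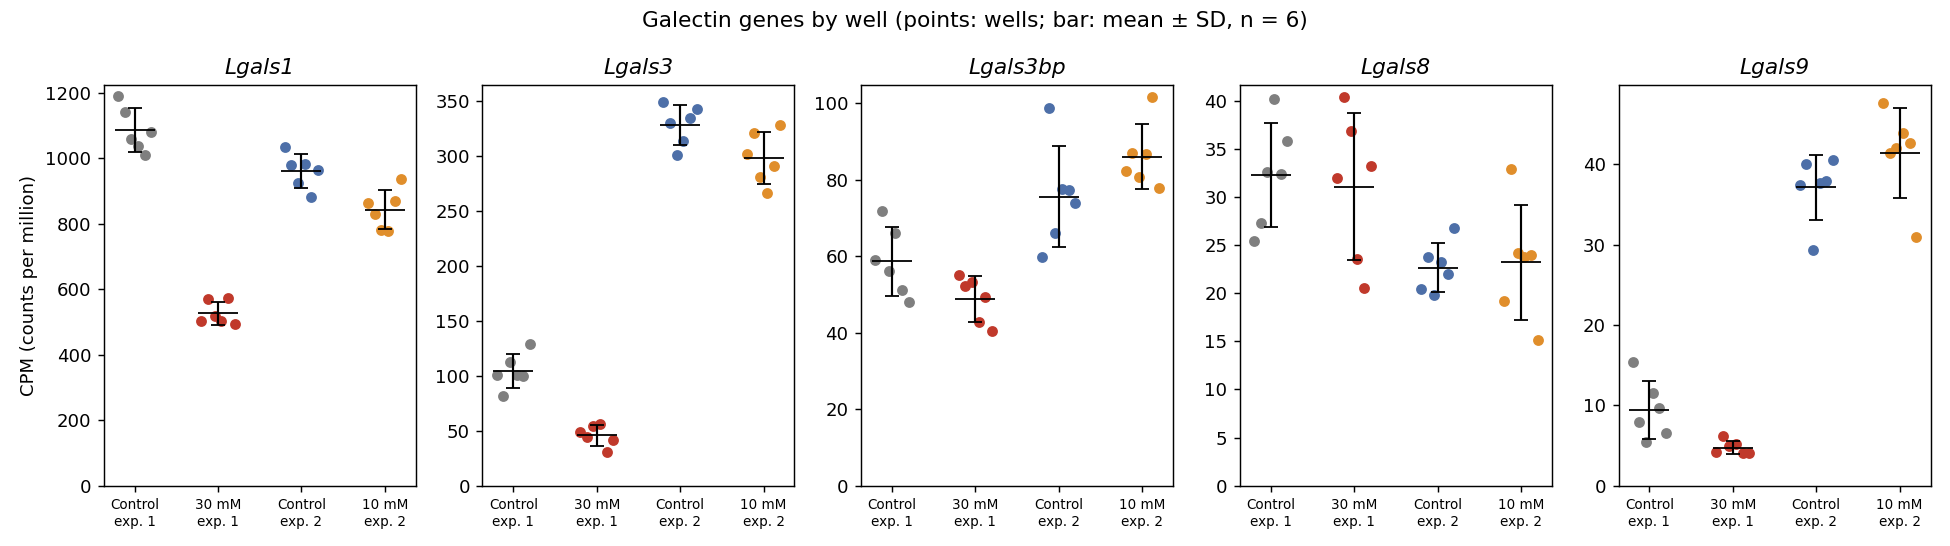
Levels of the 5 genes in CPM (vertical axes, from 0, on a scale of their own for each gene) in the 4 groups of 6 wells; points are wells, and bars give the mean and SD. Lgals1 and Lgals3 at 30 mM lie below all controls of experiment 1 (at most 573 against at least 1010 CPM for Lgals1), whereas the wells at 10 mM overlap their controls.

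The difference between the responses, the contrast that chose this pair, was -0.87 (SE 0.0862) for Lgals1 and -1.05 (SE 0.128) for Lgals3 on the log2 scale, taken as the change at 30 mM minus the change at 10 mM. The 2 genes were lower at 30 mM by a similar factor, so their proportion was similar while their sum was lower. For each 100 counts of Lgals1 there were 8.79 ± 2.13 counts of Lgals3 at 30 mM and 9.64 ± 1.66 in the controls (SD, n = 6 each), with overlapping wells. In experiment 2 there were 35.4 ± 1.79 with ethanol and 34.2 ± 2.23 without (SD, n = 6 each). This ratio does not depend on the scaling of the libraries, and between experiments its wells did not overlap, at 5.30 to 11.9 in experiment 1 and 31.8 to 38.6 in experiment 2. The 4 galectins Lgals1, Lgals3, Lgals8 and Lgals9 summed to 608 ± 32.1 CPM at 30 mM and 1232 ± 62.4 CPM without ethanol in experiment 1 (SD, n = 6 each). Lgals1 made up 84.4% to 91.2% of the sum in each well of experiment 1 and 67.8% to 72.6% in experiment 2.

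Lgals3bp did not pass the test at either dose. It had 40.5, 50.7 and 55.1 CPM as lowest, median and highest level at 30 mM and 48.1, 57.5 and 71.8 CPM in the controls of experiment 1. The log2 fold change was -0.27 (SE 0.111, 95% interval -0.49 to -0.041, edgeR adjusted p = 0.129). At 10 mM the wells had 77.8, 84.5 and 102 CPM against 59.8, 75.5 and 98.6 CPM in the controls of experiment 2, which gave a fitted 0.19 (SE 0.0916, 95% interval 0.011 to 0.38, edgeR adjusted p = 0.467). The groups overlapped at both doses, and the fitted values had opposite signs. Their difference was -0.47 (SE 0.150, edgeR adjusted p = 0.0633), just short of the threshold of 0.05. It passed without replicate 1 or 2 at 30 mM (-0.54 and -0.52), control replicate 5 or 6 of experiment 1 (-0.51 and -0.54), replicate 3 at 10 mM (-0.51) or control replicate 2 of experiment 2 (-0.58).

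Lgals8 encodes galectin-8, which is known to mark damaged endosomes for autophagy. Its levels were 20.5, 32.6 and 40.4 CPM at 30 mM (lowest, median and highest) and 25.4, 32.5 and 40.2 CPM in the controls of experiment 1. At 10 mM they were 15.2, 23.8 and 32.9 CPM, and 19.8, 22.6 and 26.8 CPM in the controls of experiment 2. Ethanol and control wells overlapped throughout. The log2 fold changes were -0.047 (95% interval -0.35 to 0.26, edgeR adjusted p = 0.889) at 30 mM and 0.020 (95% interval -0.29 to 0.33, edgeR adjusted p = 0.983) at 10 mM. The difference between the doses was -0.080 (95% interval -0.52 to 0.36, edgeR adjusted p = 0.890). These intervals exclude at both doses a change as large as that of Lgals1 at 30 mM, but not a smaller one. Heatr1 overlaps Lgals8 on the opposite strand in the GENCODE M21 annotation, and the use of strand in counting is not given in the sources used here, so reads of the 2 genes may be mixed.

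Lgals9 encodes galectin-9, a ligand of the immune receptor TIM-3. In experiment 1 it had only 5 to 23 counts per well and did not pass the low-count filter for the test at 30 mM. The lowest, median and highest wells had 4.05, 4.53 and 6.21 CPM at 30 mM and 5.42, 8.84 and 15.4 CPM in the controls. The wells overlapped, and the ratio of the means was -0.99 on the log2 scale. Without the filter the log2 fold change was -1.0 (SE 0.318, edgeR adjusted p = 0.0507). In the fit of all 24 wells it was -0.98 (SE 0.264, edgeR adjusted p = 0.0082). That p adds no support for a change at 30 mM, since the gene passed the filter there only through experiment 2. In experiment 2 Lgals9 had 40 to 76 counts per well. At 10 mM it had 31.0, 42.4 and 47.7 CPM against 29.4, 37.8 and 40.5 CPM in the controls of experiment 2, a log2 fold change of 0.16 (95% interval -0.078 to 0.39, edgeR adjusted p = 0.711). The difference between the doses was -1.14 (SE 0.295, edgeR adjusted p = 0.0147), in a test that the gene also entered only through experiment 2. Without control replicate 1 of experiment 1, the well with 15.4 CPM, that difference was -0.97 (edgeR adjusted p = 0.0609). With limma voom it was -1.03 (limma adjusted p = 0.0601), and DESeq2 returned no adjusted p.

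Counted over the 3 relatives, 0 of the 2 tested passed at 30 mM in edgeR's test, where 9.67% of 13235 genes did, 3.02% as higher and 6.65% as lower. At 10 mM 0 of 3 passed, where 0.657% of 13538 genes did. At an unadjusted p under 0.05 there was 1 at each dose, Lgals3bp, and DESeq2 and limma voom called 0 at both. DESeq2 returned no adjusted p for Lgals8 at 10 mM. Genes without an adjusted p from DESeq2 were counted as not called by it, here and in the lists below. For the difference between the doses 1 of 3 passed, Lgals9, where 3.28% of genes did, 2.4% with a negative difference. Lgals9 entered that test only through its counts in experiment 2. Limma voom called 0 of the 3, and DESeq2 also called 0 but returned no adjusted p for Lgals9. At 30 mM 4.98% of genes had ethanol and control wells that did not overlap (3.77% lower with ethanol), and at 10 mM 0.894% did (0.421% lower), and none of these 3 genes was among them. Lgals1 and Lgals3 were among them at 30 mM, a contrast that entered their choice.

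**Figure D2:**
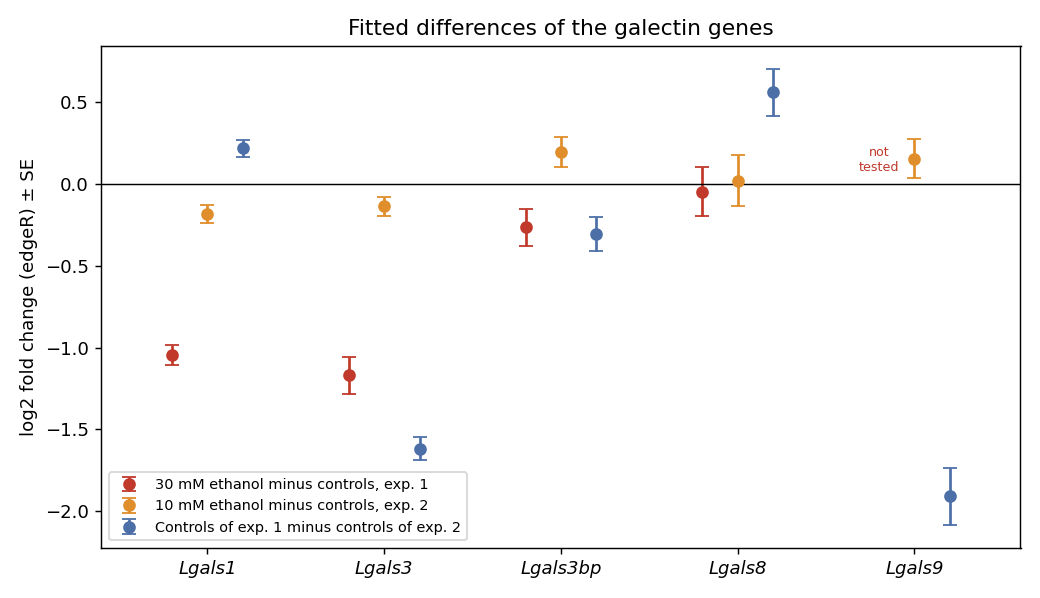
Log2 fold changes (vertical axis, edgeR, error bars SE) of the 5 genes for 30 mM ethanol, 10 mM ethanol and the controls of experiment 1 against those of experiment 2. Lgals1 and Lgals3 lie near -1 at 30 mM (-1.04 and -1.17), and Lgals3 and Lgals9 have the most negative values between the controls (-1.62 and -1.91).

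The untreated cultures of the 2 experiments were compared next, a contrast that did not choose the genes but shares their control wells. All 5 genes passed, where 43.6% of 13479 genes did, 21.3% as higher in experiment 1 and 22.3% as lower, and they differed in direction. Lgals3 was 3.07-fold lower in experiment 1 (log2 fold change -1.62, SE 0.0704, edgeR adjusted p = 3.8e-35), and Lgals9 was 3.76-fold lower, at 9.43 ± 3.66 against 37.2 ± 4.02 CPM (SD, n = 6; log2 fold change -1.91, SE 0.174, edgeR adjusted p = 4.01e-16). Neither gene's wells overlapped, as for 18.9% of genes, 10% with the lower level in experiment 1. Lgals9 passed the low-count filter only with the controls of experiment 2, where it was higher. Lgals3bp was lower by a smaller margin (-0.30, SE 0.102, edgeR adjusted p = 0.0113), with overlapping wells, and without control replicate 2 of experiment 2 the value was -0.20 (edgeR adjusted p = 0.109). Lgals1 was higher in experiment 1 by 0.22 (SE 0.0537, edgeR adjusted p = 5.54e-04) and Lgals8 by 0.56 (SE 0.143, edgeR adjusted p = 8.55e-04), on the log2 scale and with wells that overlapped. The 5 genes thus did not move as 1 group between the cultures.

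Markers of other cell types moved with some of these values. Between the control groups, the 12 microglia markers that could be tested all passed as lower in experiment 1, where 22.3% of all genes did. Their median log2 fold change was -2.99 where that of all genes was -0.0084, in the same direction as Lgals3 and Lgals9. Aif1, Tmem119 and Cx3cr1 had means of 4.74, 3.31 and 5.23 CPM in the controls of experiment 1. They passed the low-count filter only with the controls of experiment 2, where they were higher, so their direction adds no support. The summed level of the microglia markers was 372 ± 75.0 CPM in experiment 1 and 3703 ± 187 CPM in experiment 2 (SD, n = 6 each). Their part in the differences of Lgals3 and Lgals9 between cultures was not tested. At 30 mM the microglia markers summed to 364 ± 59.4 CPM (SD, n = 6), with a range of 275 to 452 CPM against 278 to 463 CPM in the controls. Of 10 microglia markers tested there 1 passed, Cx3cr1, which was higher (log2 fold change 1.07, edgeR adjusted p = 0.0124), where 9.67% of all genes were called, and the median of the 10 was -0.036. At 10 mM 1 of 12 passed, where 0.657% of all genes did. It was again Cx3cr1, higher by 0.29 on the log2 scale (edgeR adjusted p = 0.0357), and DESeq2 called 0.

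Some markers of mural cells and fibroblasts were lower at 30 mM, as Lgals1 and Lgals3 were. The 10 mural cell markers summed to 161 to 303 CPM at 30 mM and 526 to 632 CPM in the controls, and 3 of 7 tested passed, where 9.67% of all genes did. These 3, the contractile genes Acta2 (-1.60), Tagln (-1.68) and Cnn1 (-1.91), were lower. The other 4, Rgs5 (0.15), Pdgfrb (-0.078), Kcnj8 (0.033) and Notch3 (0.24), did not pass, and the median log2 fold change of the 7 was -0.078. The 8 fibroblast markers summed to 278 to 367 CPM against 459 to 668 CPM, and 5 of 8 passed, all lower, where 6.65% of all genes were called as lower. The median log2 fold change of the 8 was -0.66. Astrocyte markers summed to more at 30 mM, 4958 to 6173 against 3826 to 4438 CPM, with 5 of 8 passing, all higher, where 3.02% of all genes were called as higher. Oligodendrocyte markers summed to 5597 to 10026 against 4565 to 5163 CPM, with 6 of 10 passing, all higher, and the top of that range was replicate 1 at 30 mM alone. At 10 mM 2 of 8 fibroblast markers passed as lower and 3 of 10 oligodendrocyte markers as higher, where 0.657% of all genes passed. DESeq2 called 0 of these 8 and 3 of these 10. Of the 6 mural and 8 astrocyte markers tested at 10 mM, 0 passed. The part of these shifts in the galectin values was not tested. Between the control groups 6 of 8 fibroblast markers passed, all lower in experiment 1, where 22.3% of all genes were called as lower. Their median was -0.41, and they summed to 527 ± 78.1 CPM in experiment 1 and 704 ± 79.2 CPM in experiment 2 (SD, n = 6 each). Lgals1 was higher in experiment 1 and Lgals3 was lower. For mural markers the sum in the control groups was 588 ± 44.7 CPM in experiment 1 and 127 ± 13.6 CPM in experiment 2 (SD, n = 6 each). There 3 of 8 tested mural markers passed, where 43.6% of all genes did, and these were again Acta2 (3.92), Tagln (2.96) and Cnn1 (2.67). The other 5, Rgs5 (0.054), Pdgfrb (0.20), Kcnj8 (-0.28), Abcc9 (-0.33) and Notch3 (-0.27), did not pass, and the median of the 8 was 0.13. Tagln had a mean of 58.4 CPM in the controls of experiment 1 and 7.53 CPM in those of experiment 2. It passed the low-count filter only with experiment 1, where it was higher, so its direction adds no support. All mural and fibroblast markers had counts in each group, and of the 8 endothelial markers, which summed to 102 to 205 CPM over the 24 wells, only Cldn5 was at 0 throughout a group, in both control groups and at 30 mM.

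**Figure D3:**
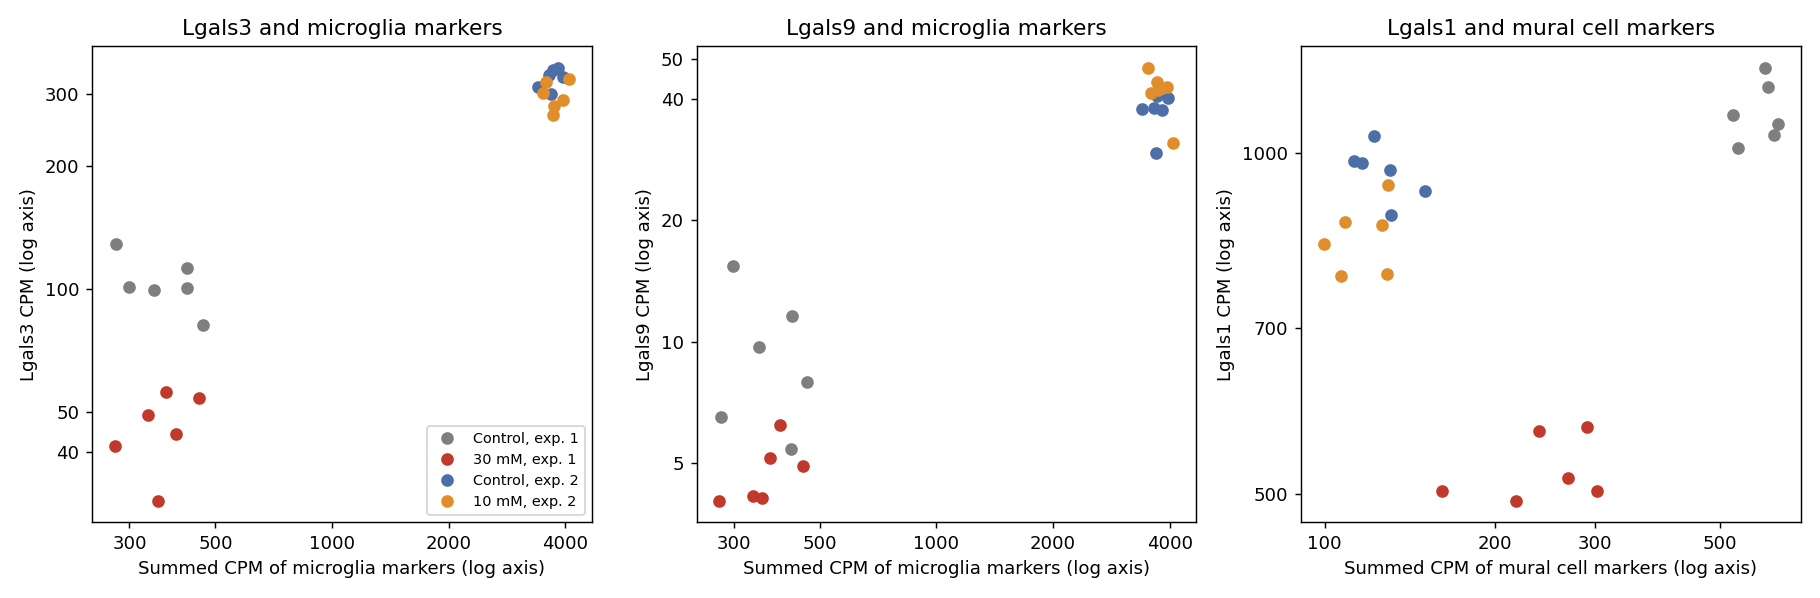
Each point is 1 of 24 wells, with the summed CPM of a marker list on the horizontal and the CPM of a galectin gene on the vertical axis, both logarithmic. Microglia sums run from 275 to 463 CPM in experiment 1 and from 3402 to 4091 CPM in experiment 2, and mural sums, which include the contractile genes Acta2, Tagln and Cnn1, from 161 to 303 CPM at 30 mM and from 526 to 632 CPM in its controls.

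To see which genes had patterns most like Lgals1 and Lgals3, log2 CPM over the 24 wells was centred on each experiment's mean. Lgals1 and Lgals3 were each compared with 13499 other genes that had a symbol and a mean log2 CPM of at least 3. The 5 most like Lgals1 were Myl9 (Pearson r = 0.95), a myosin light chain, Tagln2 (0.95), an actin-binding protein, Txnrd1 (0.94), thioredoxin reductase, Nes (0.94), the intermediate filament of progenitors, and Tubb6 (0.94), a β-tubulin. For Lgals3 they were Spp1 (0.94), the secreted protein osteopontin, Actn1 (0.91), α-actinin, S100a11 (0.90), a calcium-binding protein, Scg2 (0.89), a secretory granule protein, and Tagln2 (0.89). The wells of 1 group share their experiment, incubator and library preparation. Such values mostly follow the 30 mM change, which entered the choice of the pair, so they carry no test. Spp1 had log2 fold changes of -0.94 at 30 mM, -0.14 at 10 mM and -3.32 between the controls, and was the gene of the 5 that shared the sign of Lgals3 in each. With each of the 4 group means removed instead, r with Lgals1 was 0.72 for Nes and 0.71 for Tubb6 but 0.24 for Txnrd1, and r with Lgals3 was 0.65 for Spp1. Lgals1 and Lgals3 themselves had r = 0.88 over 24 wells with experiments centred and r = -0.04 with groups centred, so wells of 1 group with more Lgals1 did not have more Lgals3.

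Of 12 listed family genes 11 were in the table, and of the 6 beyond those described so far only Lgalsl passed the filter on low counts. Lgals4 had mean levels of 4.06 to 5.74 CPM in the 4 groups. Lgals2, Lgals7, Lgals12 and Grifin stayed under 1.64 CPM in every well. Lgalsl, which encodes a galectin-like protein without known sugar binding, had 30.6 ± 7.12 CPM in the controls of experiment 1 and 34.2 ± 4.54 CPM at 30 mM (SD, n = 6 each), a log2 fold change of 0.14 (edgeR adjusted p = 0.601). At 10 mM it was 0.037 (edgeR adjusted p = 0.962).

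Among 19 partners that galectins are known to bind, 5 of 18 tested passed at 30 mM, 2 higher and 3 lower, where 9.67% of all genes passed, 3.02% as higher and 6.65% as lower. The median log2 fold change of the 18 was -0.031 and that of all genes 0.023. Fn1, which encodes the matrix protein fibronectin, fell most, from 103 ± 29.3 to 48.7 ± 7.01 CPM (SD, n = 6; log2 fold change -1.07, SE 0.127, edgeR adjusted p = 4.97e-08). Its wells did not overlap, at 39.4 to 58.3 CPM with ethanol and 81.6 to 144 CPM without, although the controls spread widely around a median of 86.1 CPM. Itgb1, the β1 integrin subunit, fell by 0.26 (SE 0.0682, edgeR adjusted p = 0.00776) and Slc3a2, the heavy chain of the CD98 transporter, by 0.24 (SE 0.0605, edgeR adjusted p = 0.0073). Nfasc, the neurofascin of paranodes and axon initial segments, rose by 0.49 (SE 0.0716, edgeR adjusted p = 3.15e-06). At 10 mM 0 of 19 passed in edgeR's test, where 0.657% of all genes did. Of these 19, 4 had an unadjusted p under 0.05, and DESeq2 and limma voom also called 0. The change of Fn1 differed between the doses by -0.95 (SE 0.172, edgeR adjusted p = 2.02e-04). Cd44, a hyaluronan receptor and the other partner that was higher at 30 mM, had a difference of 0.33 (SE 0.0917, edgeR adjusted p = 0.0249), a call that held in 13 of the 24 fits without 1 well, where its adjusted p ran from 0.0169 to 0.0903.

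Of the enzymes that build or cap the glycans bound by galectins, 1 of 15 tested passed at 30 mM, a share near the 9.67% of all genes. It was Mgat5, which starts the branch of N-glycans that galectin-3 binds best. Its level was 88.2 ± 6.51 CPM at 30 mM and 73.1 ± 8.43 CPM in the controls (SD, n = 6 each), a log2 difference of 0.27 (SE 0.0896; edgeR adjusted p = 0.046). Its wells overlapped, and the call held in only 3 of the 12 fits without 1 well (adjusted p 0.0226 to 0.121), and DESeq2 called 0 of the 15. The median of the 15 was 0.13. At 10 mM 0 of 15 passed in edgeR's test, where 0.657% of all genes did. Of these 15, 3 had an unadjusted p under 0.05, and DESeq2 and limma voom called 0. Of 12 genes that act on damaged endosomes and lysosomes, 1 passed at 30 mM, again near the share of all genes. Sqstm1, an autophagy receptor, had a log2 fold change of -0.23 there (edgeR adjusted p = 0.0199). Without replicate 3 or 6 at 30 mM its log2 fold change was -0.20 and -0.19 (edgeR adjusted p = 0.0915 and 0.0941). At 10 mM 0 of these 12 passed in edgeR's test, where 0.657% of all genes did. Of the 12, 1 had an unadjusted p under 0.05, and DESeq2 and limma voom called 0.

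Between the untreated cultures, 12 of 19 partners passed, 5 higher and 7 lower in experiment 1, where 43.6% of all genes passed, 21.3% as higher and 22.3% as lower. The largest differences were in partners known from microglia: Trem2, a microglial lipid receptor, at -4.42 (SE 0.0953, edgeR adjusted p = 1.89e-57), Havcr2, the TIM-3 receptor of galectin-9, at -3.81 (1.29 ± 0.992 against 19.9 ± 1.21 CPM, SD, n = 6 each), Mertk, a phagocytic receptor, at -1.45, and Ptprc, the leukocyte antigen CD45, at -1.35, each a log2 fold change. The mean of Havcr2 in experiment 1 lay under the floor of 3 counts (1.65 to 2.53 CPM), so the size of its difference is uncertain. It passed the low-count filter only with the wells of experiment 2. Of 15 glycan enzymes 8 passed, a share near that of all genes, 7 of them lower, led by Gcnt1 (-1.73), which branches O-glycans, and Mgat4a (-1.17), which branches N-glycans. Man2a1, a trimming mannosidase, was at -0.56 and B4galt1, which adds the galactose that galectins bind, at -0.53. Of 12 endosome genes 3 passed, all higher, where 43.6% of all genes passed and 21.3% were called as higher. They were Sqstm1 (0.72), Chmp4b (0.36), a membrane repair factor, and Pdcd6ip (0.22), a partner of the ESCRT membrane repair machinery. Pdcd6ip was not called by DESeq2 (DESeq2 adjusted p = 0.0608), with upper quartile scaling (edgeR adjusted p = 0.115), or without control replicate 2 of experiment 1 or control replicate 2 or 6 of experiment 2 (edgeR adjusted p 0.0533 to 0.0724).

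**Figure D4:**
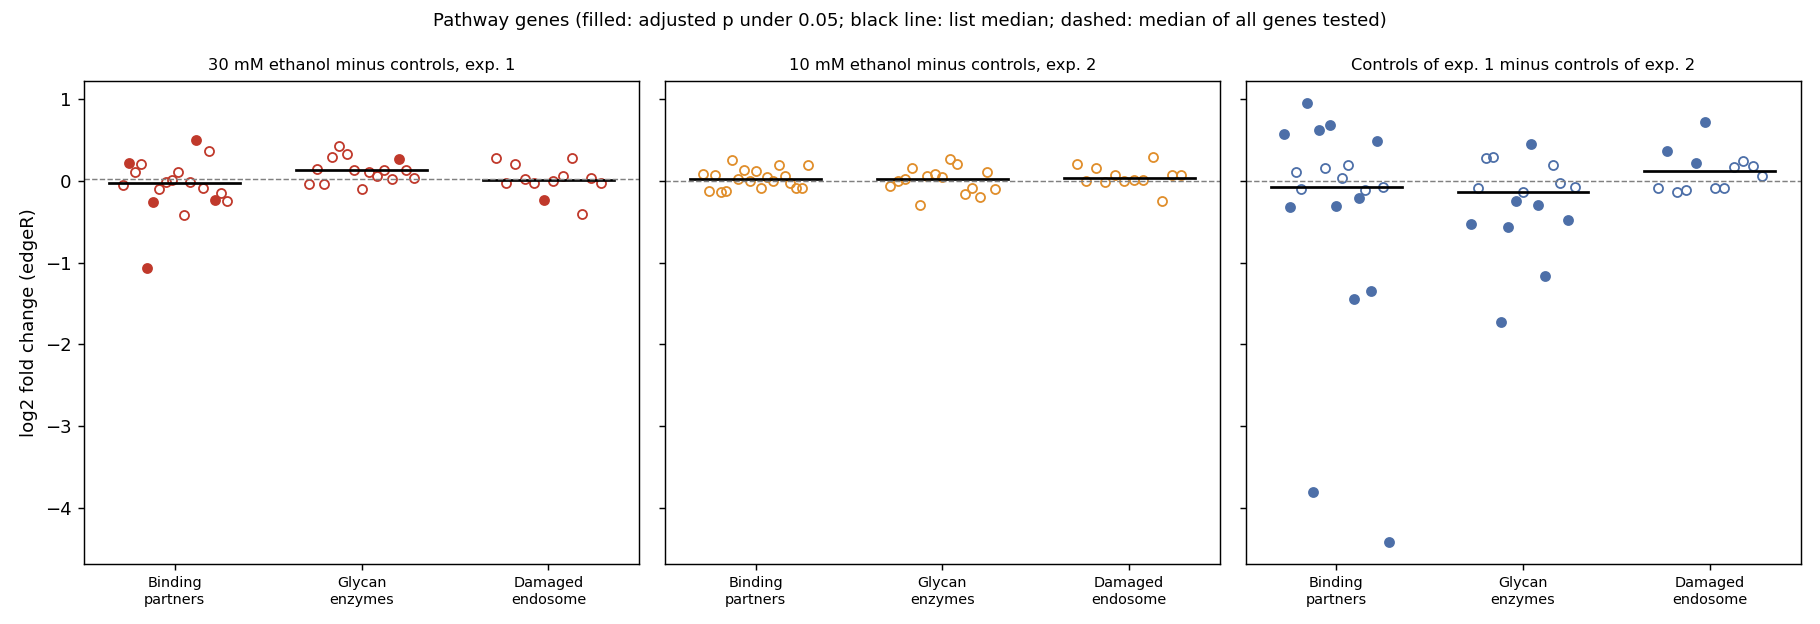
Log2 fold changes (vertical axis, edgeR) of binding partners, glycan enzymes and genes of the response to damaged endosomes at 30 mM, at 10 mM and between the control groups. Points are genes, filled where the adjusted p is under 0.05, and at 10 mM none is filled; the lowest points between the controls are Trem2 (-4.42) and Havcr2 (-3.81).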

How the data were processed

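The authors deposited raw counts per gene for 24 wells, made by 3′ tag sequencing with single-end reads, per the labels' protocols. The submitters' processing notes name cutadapt 1.18, STAR and GRCm39. The counter, annotation release, use of strand and treatment of duplicates are not given in the sources used here. Symbols were matched by identifier for 52083 genes (94.1%).

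Each comparison was fitted over all genes with edgeR 4.0.16 (quasi-likelihood test, TMM, filterByExpr at its minimum of 10 counts, R 4.3.3) and adjusted by Benjamini-Hochberg, with calls at an adjusted p under 0.05. The wells of 1 experiment entered each dose's fit, all 24 the fit of the difference, and the 12 controls a fit of their own. The floor was taken as 3 counts and covers counting error only. Likeness used log2 CPM (prior count 2) of genes with a mean of at least 3. Members and lists were chosen with earlier results of these data known. The text names the 5 members, up to 4 passing genes of each pathway list in each comparison, and the 5 most like genes of Lgals1 and of Lgals3.

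Of 60 pairs of wells of 1 group none agreed within sampling noise (chi-square per degree of freedom 1.07 to 2.88). On simulated counts, changes of 1 on the log2 scale were recovered at 85.5% for 30 mM (13176 genes tested), 83.0% for 10 mM (13571) and 63.5% for the difference (14374). Changes of 0.5 were recovered at 38% (13214 genes), 31.5% (13527) and 12.5% (14394), and for the difference 19.4% of the calls at that size were false. The simulation gave all genes the same dispersion and all groups the same means apart from the changes. It changed only genes above a low level, so these shares need not hold for the real wells. Alternatives were RLE and upper quartile scaling, no filter, DESeq2 1.42.0, limma 3.58.1 voom, 1 model for the 24 wells, a replicate block and leaving out each well. The Lgals1 pseudogenes Lgals1-ps1 and Lgals1-ps2 had 0 counts in the table.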

Additional observations from a re-analysis of the deposited data

Results flagged for a closer look

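Of 56 series of 6 wells (the 5 genes, total counts and 8 marker sums in 4 groups), 5 had a well far from the others, where chance gives about 1 in 20, or 2.8. The 1 among the galectin genes was Lgals9 in control replicate 3 of experiment 2, at 29.4 CPM, below the other 5. The summed oligodendrocyte markers stood apart at 10026 CPM in replicate 1 at 30 mM and at 5343 CPM in replicate 6 at 10 mM. In experiment 1, control replicate 6 had 3826 CPM of astrocyte markers and control replicate 1 had 103 CPM of neuron markers. Without replicate 1 at 30 mM, the log2 fold change at 30 mM was -1.04 for Lgals1 and -1.20 for Lgals3.

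In edgeR's test of the difference, the responses to 30 mM and 10 mM were called different for Lgals9 (-1.14), Fn1 (-0.95), Mgat5 (0.45) and Cd44 (0.33). The values are differences of log2 fold changes. Lgals1 (-0.87) and Lgals3 (-1.05) were chosen for this difference. Mgat5 kept its call in 5 of 24 fits without 1 well (edgeR adjusted p 0.0193 to 0.135). Dose, experiment and batch cannot be told apart in any of them.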

How the results depend on the processing

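Under the other settings the change of Lgals1 at 30 mM lay between -1.07 and -1.01 and that of Lgals3 between -1.20 and -1.14. At 10 mM the value of Lgals1 was -0.20 with upper quartile scaling, -0.19 with limma voom and -0.23 to -0.15 without 1 well, the lowest value being that without replicate 6 at 10 mM. The difference of Lgals3bp passed without the filter (-0.52) and with the replicate block (-0.48, edgeR adjusted p = 0.0455), and ran from -0.58 to -0.41 without 1 well. That of Lgals9 was -1.03 with limma voom and -1.28 to -0.97 without 1 well, and the control difference of Lgals3bp was -0.37 to -0.20. Lgals8, near 0, changed sign with limma voom at 10 mM (-0.0087) and over fits without 1 well: -0.16 to 0.047 at 30 mM (0.025 and 0.047 without ethanol replicates 4 and 5, 0.037 without control 4), -0.085 to 0.12 at 10 mM (-0.085 without ethanol replicate 2, -0.0087 and -0.012 without controls 1 and 3) and -0.21 to 0.014 for the difference (0.0023 and 0.014 without replicate 5 at 30 mM and replicate 2 at 10 mM).

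Genes called at 10 mM numbered 89, 39 with DESeq2, 21 in the joint fit and 37 to 95 without 1 well. For the difference they numbered 481, and 329 to 759 without 1 well. For all such changes the cause was not tested. Same-numbered wells had correlated deviations of -0.17 to 0.23 in experiment 1 and -0.038 to 0.040 in experiment 2. The best match was the well's own number for 1 well in experiment 1 and 0 in experiment 2. No pairing by number was seen, but such values cannot exclude it. The block changed no other call of a member. Low counts limit Lgals9 and Lgals8 most: 3 counts are 1.65 to 2.53 CPM.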
